A study of Mus musculus with 8 samples.

Results

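The genes described here encode the proteins of the cytosolic ribosome. They were picked by name: every non-control probe on the array whose gene symbol follows the pattern of a large subunit (Rpl) or small subunit (Rps) ribosomal protein was taken, apart from Rpl22 and Rpl22l1. Rpl22 carried the epitope tag used to collect the RNA. The rule gave 185 of 55681 probes, which named 81 of 35753 genes. There were 116 probes for 48 large subunit genes and 69 probes for 33 small subunit genes. Of these, 182 probes and 79 genes passed the filter on dim probes and were tested, 46 genes of the large subunit and 33 of the small one.

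The study used RiboTag mice, in which Cre recombinase switches on an HA-tagged copy of the ribosomal protein Rpl22, so that anti-HA antibody pulls down ribosomes and the RNA bound to them from Cre-expressing cells. Cre was driven by the Camk2a promoter, which is active mainly in excitatory neurons of the forebrain, and the tissue was hippocampus. All mice were positive for Camk2a-Cre and for Ribotag. The wild type (WT) group was Ctcf wild type, and the conditional knockout (CKO) group was Ctcf loxP/loxP. Both groups thus carried the Cre and the tag and differed in the Ctcf allele, although the design text of the series names loxP/loxP mice without Cre as the controls. The sample labels were followed here. Each group held 4 C57BL/6 mice, 3 males and 1 female, untreated and at least 3 months old, with 1 array per mouse. The comparison asks how RNA on tagged ribosomes differed in mice whose Ctcf gene, for a chromatin architecture protein, was deleted in Cre-expressing cells. The RNA is only that recovered in the precipitate, and no input fraction was used here. In such bulk RNA, fewer cells of a type and less RNA per cell cannot be told apart.

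A ribosome is built from ribosomal RNA and a fixed set of proteins, each needed once per particle except for the acidic stalk proteins. Their mRNAs are among the most abundant in any cell. They start with a stretch of pyrimidines, the terminal oligopyrimidine (TOP) motif, through which mTOR signalling and the RNA-binding protein LARP1 set how strongly the whole class is translated. In neurons these mRNAs are also found in dendrites and axons. Mammalian genomes hold many processed pseudogenes of these genes, near-identical copies spread over other chromosomes, so a short probe may match several places.

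Probes on this array were 60 bases long and were placed on mouse build mm9 by the array's annotation. The sequences that carry the results are shown first. The Rps9 probe had the smallest p of any member gene. The Rpl6 pair shows how probes given to different chromosomes can read the same stretch of a gene, with the 28 shared bases in capitals. The Rpl10 probe and a probe of its paralog Rpl10l are both for a protein beside the peptidyl transferase centre. They lie at positions 627 and 461 of their transcripts and are not matching stretches. They therefore do not show how far the paralogs differ in sequence. Each of these 60-base probes was free of stop codons in at least 1 of 3 reading frames, as were 156 of the 185 member probes.
Rps9, chr7:3658287-3658346, plus strand: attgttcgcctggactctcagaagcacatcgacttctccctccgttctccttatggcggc
Rpl6, chr19:45524862-45524921, minus strand: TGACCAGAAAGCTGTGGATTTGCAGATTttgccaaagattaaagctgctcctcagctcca
Rpl6, chr10:110563642-110563701, plus strand: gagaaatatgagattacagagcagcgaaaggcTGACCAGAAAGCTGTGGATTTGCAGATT
Rpl10, chr8:109451709-109451768, minus strand: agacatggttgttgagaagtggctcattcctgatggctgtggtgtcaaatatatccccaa
Rpl10l, chr12:67384868-67384927, minus strand: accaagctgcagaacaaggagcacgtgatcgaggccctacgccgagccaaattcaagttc

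A pyrimidine stretch was more common at annotated starts of member genes than at those of all genes, but many member starts lacked it. RefSeq start sites on build GRCm38.p6 were given for 60 of the 81 genes, with 71 starts in all. A run of at least 8 bases, each C or T, lay on the sense strand within 30 bases of the start at 36 of 71 starts (50.7%), against 7535 of 32851 starts of all genes (22.9%). A run of at least 5 such bases that began with C within 5 bases of the start was present at 42.3% of member starts and 18.3% of all starts. The shorter run can lie within the longer one. The windows below are those of the 3 members of each subunit with the smallest p among those with 1 start in the table, from 15 bases before the start, with the longest run of C or T in capitals. These matches describe letters, not proven motifs.
Rpl13a, chr7:45128731-45128760, minus strand: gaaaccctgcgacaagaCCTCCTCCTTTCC
Rpl15, chr14:18270972-18271001, minus strand: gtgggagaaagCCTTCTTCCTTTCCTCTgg
Rpl27a, chr7:109519180-109519209, plus strand: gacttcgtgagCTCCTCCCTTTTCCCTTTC
Rps9, chr7:3704026-3704055, plus strand: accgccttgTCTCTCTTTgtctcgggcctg
Rps27, chr3:90213634-90213663, minus strand: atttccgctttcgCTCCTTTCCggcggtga
Rps6, chr4:86857353-86857382, minus strand: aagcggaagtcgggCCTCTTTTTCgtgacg
The 33 tested members with the longer run at a start had a median difference of 0.24 between CKO and WT, on the log2 scale used below, and the 25 without it had 0.28.

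Levels are given as log2 of an array's processed signal minus that array's 75th percentile, so 0 marks the 75th percentile of probes on the array. Differences are CKO minus WT on that log2 scale. Between 72.2% and 81.5% of probes were well above background on each array, lowest on CKO 3. Arrays lay on 3 slides: WT 1 alone on the first, WT 2, WT 3, CKO 1 and CKO 2 on the second, and WT 4, CKO 3 and CKO 4 on the third. The targeted gene was checked first. Ctcf, which encodes the zinc finger protein that shapes chromatin loops (probe at mm9 chr8:108206632-108206691), read -1.11, -1.75, -1.47 and -1.15 on the WT arrays and -2.56, -2.42, -1.96 and -2.02 on the CKO arrays. Every CKO array was below every WT array. The difference was -0.87 ± 0.22 (SE), or 54.8% of the WT signal, with an exact two-sided permutation p of 0.0286, the smallest that 4 against 4 allows. The adjusted p from limma was 0.724.

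Ribosomal protein genes stood slightly higher in the CKO precipitates, as a class and by little. Differences were positive for 75 of 79 genes, with a median of 0.26, while 41.5% of the 29529 genes tested were positive and their median was -0.08. No member passed an adjusted p of 0.05 in limma, and the smallest was 0.724; across all genes 1 passed (0.00339%). At an unadjusted limma p under 0.05, 10 members were higher and 0 were lower in CKO, against 2.5% and 2.8% of all genes. In 15 members all CKO arrays lay above all WT arrays, against 1.96% of all genes. That number was 31 without WT 4 and 36 without CKO 4, where 8.7% and 4.48% of all genes did so. It was 3 with the authors' deposited values and 7 with quantile normalization, with 2.55% and 1.79% of all genes. The 3 of 79 members with the authors' values was near the share of all genes. Median scaling gave 3 members, and normexp with quantile normalization gave 6. Under these 2 scalings 399 and 507 of the 29529 genes did so. None of these counts is a call on a single gene.

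The class differed from other genes in signal as well as in genotype difference. By mean signal, 59 of the 79 members fell in the brightest of 10 equal bins of the genes tested and 73 in the 2 brightest bins. The median difference of all genes ran with signal, from -0.52 in the dimmest bin to 0.16 in the brightest. In that brightest bin 74.5% of differences were positive, 7.08% were higher at an unadjusted p under 0.05, and 8.57% had all CKO arrays above all WT arrays. After quantile normalization, which gives all arrays the same distribution, the bins ran only from -0.08 to 0.04. The member median was then 0.13 and that of all genes -0.01, with 69 members positive and 48.6% of all genes positive. Scaling to each array's median moved all genes up by more than 0.1, from a median of -0.08 to 0.07 with 57.6% positive. The members moved along, to 0.40. Both scalings subtract the same value from all genes of an array, so by construction the members stood 0.33 above all genes under either. That gap was 0.14 with quantile normalization and 0.06 with the authors' deposited values. With the authors' deposited values, the member median was 0.09 against 0.03 for all genes, and 65 members were positive with 54.2% of all genes. The part of signal in the shift of the class was not tested further.

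**Figure D1:**
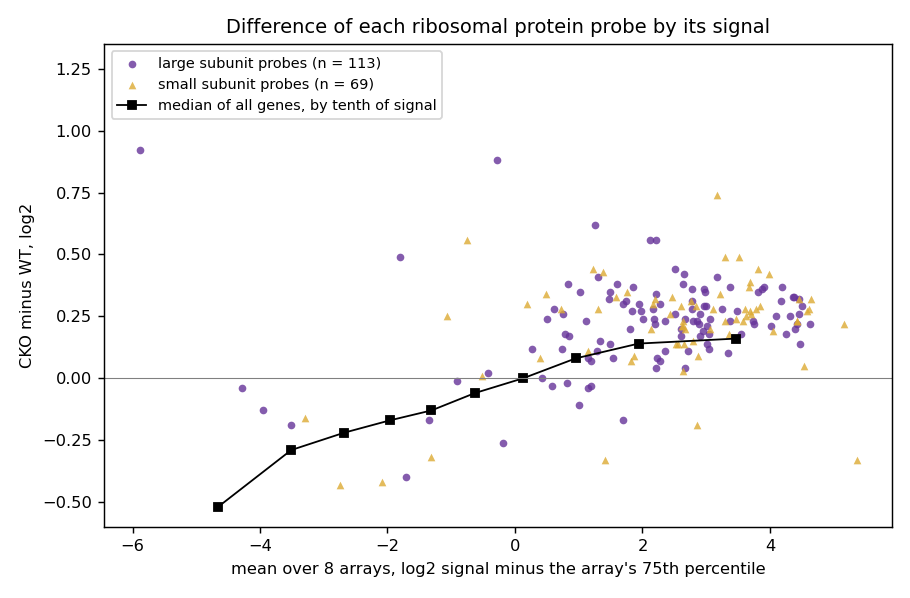
Difference between CKO and WT (log2, vertical) of each tested ribosomal protein probe against its mean scaled log2 signal over 8 arrays (horizontal), with large subunit probes as circles and small subunit probes as triangles. Black squares give the median difference of all genes by bin of signal, rising from -0.52 to 0.16, and most bright member probes lie above them.

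Both subunits followed the same course over the arrays. For each gene, the mean over 8 arrays was subtracted, and the median over genes was taken on each array. For the large subunit this median was -0.23, -0.19, -0.17 and 0.04 on the WT arrays and 0.16, 0.01, 0.27 and 0.04 on the CKO arrays. For the small subunit it was -0.21, -0.17, -0.12 and 0.01 in WT and 0.16, 0.09, 0.31 and 0.01 in CKO. WT 1, WT 2 and WT 3 were low and CKO 1 and CKO 3 high. In the large subunit WT 4 lay above CKO 2, so the groups overlapped, and in both subunits WT 4 and CKO 4 were alike. The gap between subunits stayed between -0.03 and 0.08 on all 8 arrays. The median difference was 0.25 for the large and 0.27 for the small subunit.

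**Figure D2:**
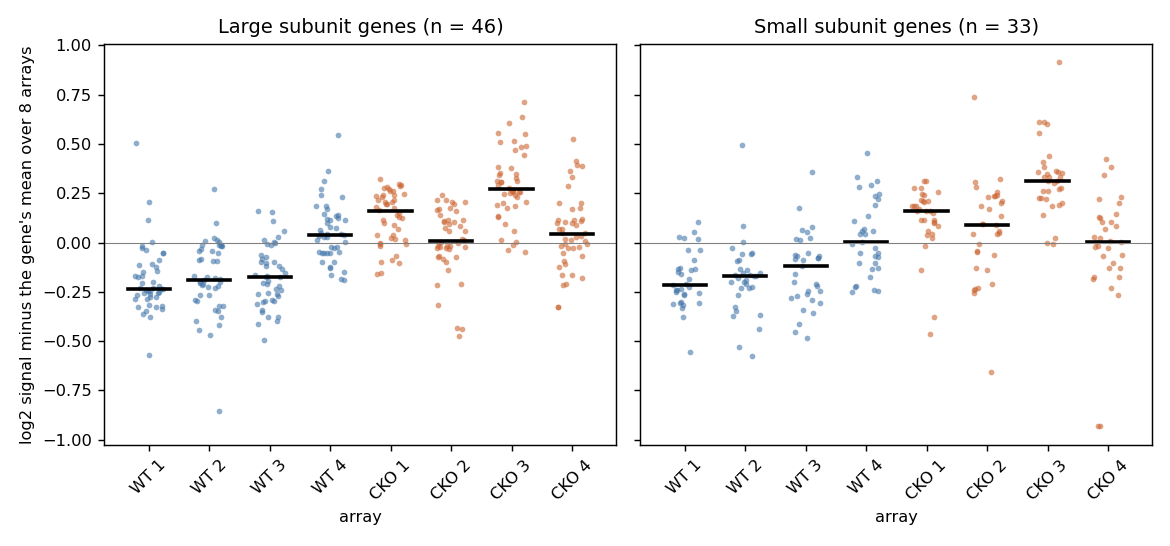
Log2 signal of each ribosomal protein gene minus its own mean over 8 arrays (vertical), by array (horizontal), for 46 large and 33 small subunit genes. Points are genes, black bars are medians; WT 1 to WT 3 sit below 0 and CKO 3 highest, at 0.27 and 0.31.

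Slide and single arrays moved with this pattern. Within the second slide (2 WT and 2 CKO arrays) the median difference was 0.24 for large and 0.26 for small subunit genes. Within the third slide (WT 4 against CKO 3 and CKO 4) it was 0.14 for both, and 63 members were positive. With slide as a fixed block, the medians were 0.20 and 0.23. Leaving out CKO 3 left 1 member higher at an unadjusted p under 0.05, against 1.14% of all genes. Leaving out WT 1 or WT 2 also left 1, against 1.31% and 1.26%, so each of these counts was near the share of all genes. Without WT 3 the number was 2 (1.39% of all genes), without CKO 1 it was 4 (1.82%), and without WT 4 it was 15 (5.28%). With slide as a fixed block, 6 members were higher at that p, against 2.39% of all genes.

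The array medians carried 42.5% of the variation of member genes over the 8 arrays, and 27% after quantile normalization. The median SD within a group was 0.18 for members, 0.20 for the brightest bin of genes and 0.34 for all genes. SDs of single members ran from 0.08 to 0.57. Relative to the brightest bin, the class stood -0.01, -0.16, -0.10 and 0.05 on the WT arrays and 0.04, -0.03, 0.12 and 0.05 on the CKO arrays, a difference of 0.10 in means with overlapping groups.

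**Figure D3:**
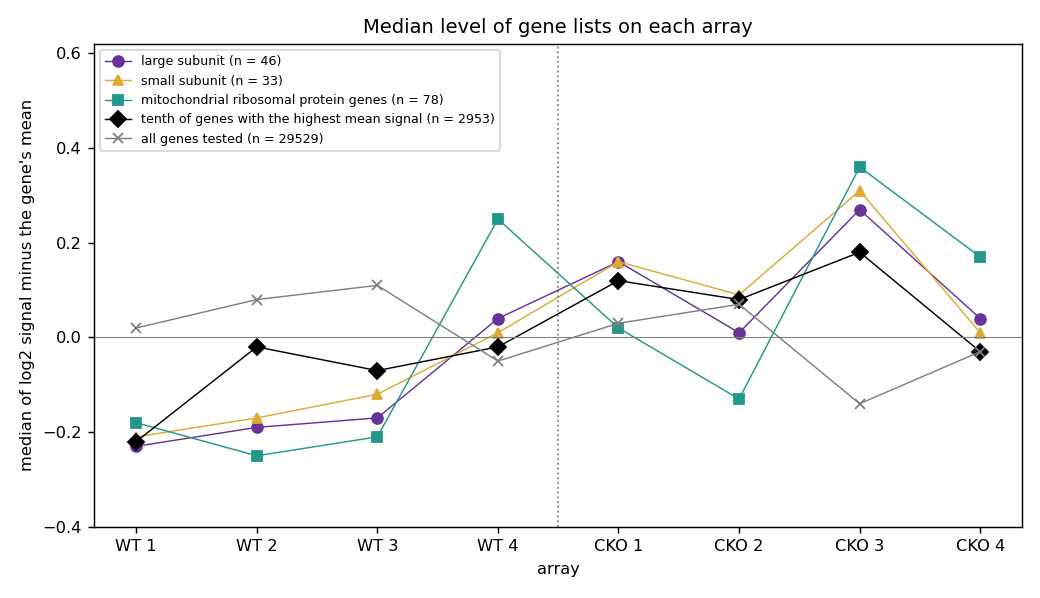
Median over genes of the centred log2 signal (vertical) on each array (horizontal) for both subunits, mitochondrial ribosomal protein genes, the brightest bin of genes and all genes tested; lines only join points of a list and the arrays have no order. Both subunits follow each other closely, and all genes tested run the other way on CKO 3, at -0.14.

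In the small subunit, the members with the smallest p were Rps9, Rps24, Rps27 and Rps6. Rps9, a protein of the early assembling body of the small subunit, read 3.19, 3.07, 3.53 and 3.27 in WT and 3.82, 3.79, 3.82 and 3.58 in CKO. All CKO arrays were above all WT arrays. Its difference was 0.49 ± 0.16 (SE, n = 4 per group) and its adjusted p in limma 0.724. Rps24 read 3.48, 3.50, 3.42 and 3.53 in WT and 3.85, 3.76, 4.00 and 3.79 in CKO, again without overlap, with a difference of 0.37 ± 0.14. This Rps24 probe was placed on chromosome 1, and the gene's other probes, on other chromosomes, gave 0.18 to 0.28. Rps27 read 2.99, 2.76, 3.07 and 3.35 in WT and 3.45, 3.49, 3.89 and 3.32 in CKO. Here CKO 4 lay below WT 4, and the difference was 0.49 ± 0.19. Rps6, the main substrate of S6 kinase below mTOR, read 3.26, 3.59, 3.75 and 3.79 in WT and 3.92, 3.95, 4.37 and 3.90 in CKO. Its groups did not overlap, and CKO 3 stood well above the other CKO arrays. The difference was 0.44 ± 0.19. The annotation placed the Rps27 probe on chromosome 9 and the Rps6 probe on chromosome 15. The starts printed above for these genes lie on chromosomes 3 and 4. Whether these probes, or those of the other genes described, read other copies was not tested.

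In the large subunit, Rpl13a had the widest difference of any member, 0.56 ± 0.22. It read 1.64, 1.74, 2.04 and 2.28 in WT and 2.39, 2.45, 2.92 and 2.20 in CKO, so CKO 4 overlapped WT 4. Rpl13a is also known outside the ribosome as a translational repressor in the interferon response. Rpl15 read 3.50, 3.73, 3.66 and 3.70 in WT and 4.03, 4.03, 4.01 and 3.92 in CKO, without overlap, and differed by 0.35 ± 0.14. The annotation placed this Rpl15 probe on chromosome 12, while the start printed above is on chromosome 14. Whether it read another copy was not tested. Rpl3, whose loop reaches towards the peptidyl transferase centre, read 3.00, 2.73, 2.97 and 3.19 in WT and 3.17, 3.35, 3.53 and 3.46 in CKO. CKO 1 fell just under WT 4, and the difference was 0.41 ± 0.16. This Rpl3 probe was placed on chromosome 5, and the gene's other probe, on chromosome 4, gave 0.11. Rpl27a read 2.17, 2.09, 2.30 and 2.59 in WT and 2.75, 2.57, 3.02 and 2.58 in CKO, with a difference of 0.44 ± 0.18 and 2 CKO arrays just under WT 4. In each of these genes WT 4 was among the highest WT arrays or CKO 4 the lowest CKO array. The adjusted p in limma was 0.724 for each of these 4 genes and for Rps24, Rps27 and Rps6.

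Members without overlap between groups also included Rps23, Rps14 and Rps20 in the small subunit and Rpl9, Rpl10, Rpl34, Rpl23, Rpl14, Rpl18 and Rpl19 in the large one. Rps23, at the decoding centre, had the tightest WT values, 3.48, 3.47, 3.49 and 3.43, against 3.82, 3.65, 3.88 and 3.63 in CKO. Its difference was 0.28 ± 0.14.

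**Figure D4:**
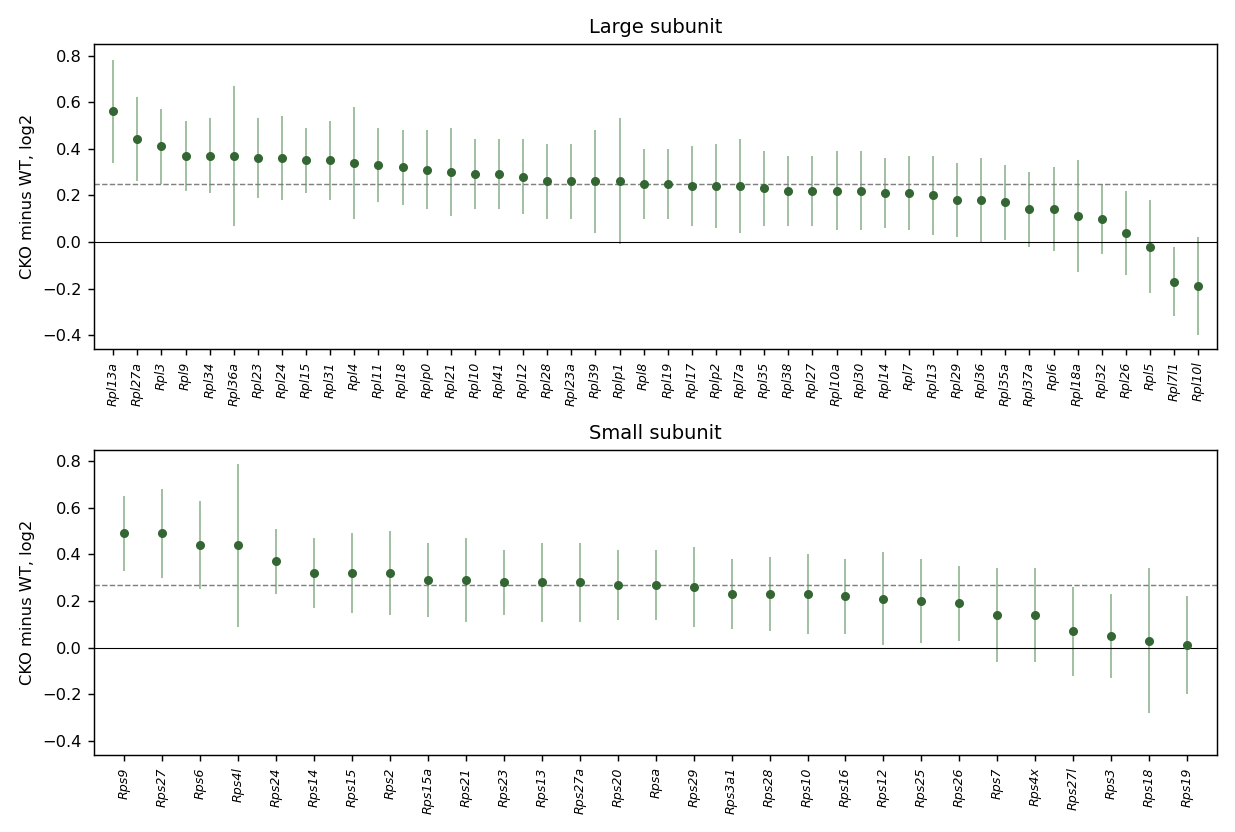
Difference between CKO and WT (log2, vertical) for genes of the large (top) and small (bottom) subunit, sorted, apart from some not reported here by name; bars are standard errors from limma (n = 4 per group) and the dashed line is the median of all tested genes of the subunit. Rpl5, Rpl7l1 and Rpl10l lie below 0.

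Rpl7l1, Rpl10l and Rpl5 had negative differences, and none of these was below 0 under every setting tried. Rpl7l1, a paralog of Rpl7, read -1.35, -1.08, -1.19 and -1.45 in WT and -1.42, -1.56, -1.39 and -1.38 in CKO, a difference of -0.17 ± 0.15. It was 0.01 with the authors' deposited values. Rpl5 was at -0.02 ± 0.20. When every array was scaled to the median of the ribosomal protein genes instead, a scaling chosen after seeing the data, Rpl7l1 stood at -0.44 and was the only member with an unadjusted limma p under 0.05. On that scale 10.7% of all genes were lower and 0.45% higher at that p.

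By place in the ribosome, no group of proteins stood clear of the class. The P-stalk recruits elongation factors to the ribosome, and its genes Rplp0, Rplp1, Rplp2 and Rpl12 ran from 0.24 to 0.31 with a median of 0.27. Rplp0, the stalk's base, read 2.51, 2.54, 2.47 and 2.94 in WT and 3.03, 2.87, 3.08 and 2.70 in CKO. WT 4 stood alone above the other WT arrays and above CKO 2 and CKO 4. Within the third slide the difference was -0.04. The dimmer probes of Rplp0 gave 0.08 and -0.03, so its 0.31 rests on its brightest probe. In the peptidyl transferase region, Rpl3, Rpl8 and Rpl10 ran from 0.25 to 0.41. Around the exit tunnel through which the nascent chain leaves, all 8 genes (Rpl4, Rpl17, Rpl19, Rpl23a, Rpl26, Rpl31, Rpl35, Rpl39) had positive differences, from 0.04 for Rpl26 to 0.35 for Rpl31, with a median of 0.25. In the decoding and mRNA channel region of the small subunit (among them Rps2, Rps3, Rps14, Rps15, Rps23, Rps26 and Rps28), the range was 0.05 for Rps3 to 0.32 and the median 0.26. Rpsa, the laminin receptor precursor, read 4.33, 4.43, 4.52 and 4.51 in WT and 4.77, 4.82, 4.81 and 4.48 in CKO. Its CKO 4 value fell among the WT arrays, and the difference was 0.27 ± 0.15. The direction of Rpl26 and Rps3 turned under quantile normalization, to -0.08 and -0.06.

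The 5S RNP, which binds MDM2 and stabilises p53 when ribosome assembly is disturbed, has Rpl5 and Rpl11 as its proteins. Rpl11 read 4.12, 4.17, 4.30 and 4.24 in WT and 4.66, 4.53, 4.70 and 4.25 in CKO. Only CKO 4 met the WT range, and the difference was 0.33 ± 0.16. Rpl5 read 1.02, 0.55, 0.68 and 1.05 in WT and 0.72, 0.50, 0.83 and 1.18 in CKO, with overlap throughout. Of 10 members mutated in Diamond-Blackfan anaemia, an inherited failure of red cell production, 9 were positive and the median was 0.18. Rps24 was highest at 0.37 and Rpl5 lowest; Rps19, the gene most often mutated in that disease, was at 0.01 ± 0.21, reading -0.41, -0.68, -0.76 and -0.22 in WT and -0.89, -0.64, -0.37 and -0.13 in CKO. Rps10, Rps26, Rps7, Rpl11, Rpl35a and Rpl26 were among the others. None passed the test.

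Among the paralogs, Rpl3l, Rpl39l and Rpl10l were dim. Rpl3l, the muscle form of Rpl3, was well above background only on CKO 3, and Rpl39l, known from testis, only on WT 2; neither was tested. Rpl10l, the copy of Rpl10 used in male germ cells, was tested. Its brighter probe read -3.01, -3.91, -3.36 and -3.40 in WT and -3.49, -3.54, -3.56 and -3.84 in CKO, a difference of -0.19 ± 0.21. Its other probe, printed above, cleared background on 3 CKO arrays but on only 1 WT array and gave 0.92 ± 0.82, so these values fix no direction. Rps4l ran with wide spread, at 0.97, 0.66, 0.75 and 1.69 in WT and 1.42, 0.58, 2.15 and 1.66 in CKO, a difference of 0.44 ± 0.35. WT 4 and CKO 4 were alike there. Rps27l, a p53 target, differed by 0.07 ± 0.19 and turned to -0.03 under quantile normalization.

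Several probes read most of these genes, and they did not always tell the same story. Of 182 probes tested, 20 had a negative difference, against 60.6% of all 44316 probes. At an unadjusted limma p under 0.05, 16 were higher and 0 lower, against 2.12% of all probes higher; the smallest adjusted p of a member probe was 0.738. Among 58 genes with at least 2 tested probes, 16 had probes of both signs, and the median gap between the highest and lowest probe was 0.20. Signal went along with sign. Of the 18 tested probes with a mean below 0 on the scaled log2 axis, 11 were negative, with a median of -0.08. Of the 164 at or above 0, 9 were negative, with a median of 0.25. A probe's signal depends on its sequence as well as on the amount of RNA.

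Probe coordinates seldom pointed to a single locus. Among the genes with at least 2 probes, 51 had probes placed on more than 1 chromosome, up to 4, and 7 had all mapped probes on the same one, 6 of them with every probe mapped. Of the probes, 3 had no coordinates: those of Rpl3l and Rps27l and 1 of Rps3. The 26 tested genes with every probe on 1 chromosome, of which 20 had only 1 probe, had a median difference of 0.25. The 51 with more than 1 chromosome had 0.26. This split compared the probes of a gene only with each other, not with the gene's own locus. It therefore cannot tell how probes at the gene itself differ from probes at copies. Probes of a gene that overlap in sequence gave like values. In 23 pairs, all within a gene and 19 of them placed on different chromosomes, at least 20 bases in a row were shared. The median gap between the differences of such a pair was 0.08 and the widest 0.19, as in the printed Rpl6 pair at 0.14 and 0.17. For the other 148 pairs of probes of a gene, the median gap was 0.17 and the widest 1.11. Of the 185 probes, 59 (31.9%) held AATAAA, the letters of the common poly(A) signal, on the strand of the probe, against 10.1% of all probes. Member probes with and without these letters had medians of 0.27 and 0.23.

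**Figure D5:**
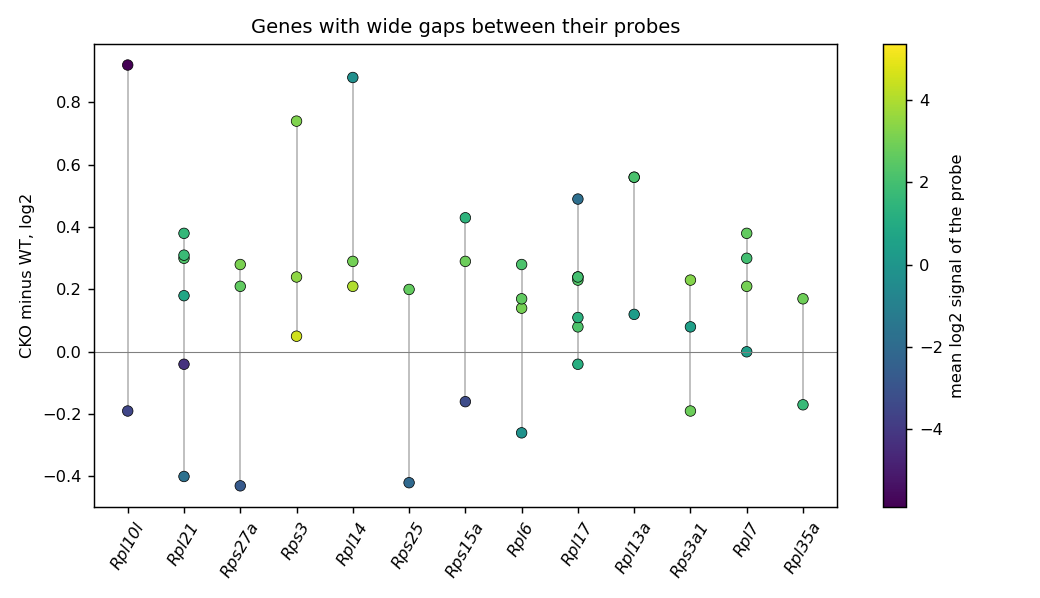
Difference between CKO and WT (log2, vertical) of each tested probe of member genes with wide gaps between probes, with colour for the probe's mean scaled log2 signal. In Rpl21, Rps27a and Rps25 the negative probes are dim ones, but those of Rpl35a and Rpl17 have mean signals of 1.7 and 1.15.

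Wide gaps among probes well above background on all arrays were seen in Rpl21, Rps27a, Rps3 and Rpl14. For Rpl14 and Rps3 the 2 probes that differed most lay on the same chromosome, and 30 of the 60 bases of each are shown with AATAAA in capitals. The coordinates are those of the whole probe. Those of the second Rps3 probe span more than 60 bases of the genome.
Rpl14, chr9:120483487-120483546, plus strand: gctacacagaatAATAAAggttctttttga
Rpl14, chr9:120483689-120483748, plus strand: gttaaccctaacaAATAAAtttcccaccaa
Rps3, chr7:106626430-106626489, minus strand: ctctgcctcagggtattatgAATAAAgtgt
Rps3, chr7:106627408-106627786, minus strand: gatgctaccttgtaaagacatttAATAAAa
The first Rpl14 probe read 3.77, 3.96, 3.90 and 3.98 in WT and 4.30, 4.01, 4.10 and 4.02 in CKO, a difference of 0.21 ± 0.15. The second, some way downstream, read -0.89, -0.67, -1.12 and -0.22 in WT and 0.15, -0.09, 0.76 and -0.19 in CKO, a difference of 0.88 ± 0.27. Both kept all CKO arrays above all WT arrays, and the gap lay in the size.

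For Rps3, a protein of the mRNA entry channel that also takes part in DNA repair, the first probe read 4.40, 4.62, 4.71 and 4.31 in WT and 4.65, 4.79, 4.53 and 4.27 in CKO, with a difference of 0.05 ± 0.18. The second read 2.93, 1.91, 3.17 and 3.19 in WT and 3.48, 3.36, 3.73 and 3.58 in CKO, a difference of 0.74 ± 0.29. Its groups did not overlap, but WT 2 lay far below the other WT arrays. Probes of Rps27a, which encodes a fusion of ubiquitin and a small subunit protein, gave 0.28, 0.21 and -0.43, and the negative one had a mean signal of -2.74. The 6 probes of Rpl21 ran from -0.40 to 0.38. The 4 bright ones, on chromosomes 8 and 17, were all positive and the 2 dim ones, on chromosome 5, negative. Which of these probes lie at the gene itself was not tested.

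The other lists of the translation machinery had small positive median differences too, which were smaller within the third slide. With quantile normalization these list medians ran from 0.13 to 0.26, against 0.13 for the cytosolic class. With the authors' deposited values they ran from 0.11 to 0.23, all above the 0.09 of the cytosolic class. Their counts at an unadjusted p under 0.05 stand against 2.5% of all genes higher and 2.8% lower. Mitochondrial ribosomal protein genes, whose products build the separate ribosome of the organelle, had a median of 0.23 over 78 genes, with 65 positive, 7 higher and 1 lower at an unadjusted p under 0.05. On the arrays their median ran -0.18, -0.25, -0.21 and 0.25 in WT and 0.02, -0.13, 0.36 and 0.17 in CKO. They were thus higher on WT 4 than the cytosolic class, and their groups overlapped more. Mrpl58 at 0.48 ± 0.17 and Mrpl2 at 0.40 ± 0.15 had the smallest p in limma, with an adjusted p of 0.724. Within the third slide the list's median was 0.01, and without 1 array it ran from 0.13 (without CKO 3) to 0.35 (without WT 4).

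Elongation factor genes had a median of 0.19 over 11 genes, with 10 positive and 3 higher at an unadjusted p under 0.05. Eef1d read 3.20, 3.31, 3.10 and 3.22 in WT and 3.76, 3.58, 3.70 and 3.39 in CKO, without overlap. Eef1a2, the form of elongation factor 1 alpha found in neurons and muscle, differed by 0.42 ± 0.17. Initiation factor genes had a median of 0.22 over 38 genes, with 33 positive and 3 higher. Eif4a2, an RNA helicase of the cap-binding complex, differed by 0.47 ± 0.16 and Eif4g1, its scaffold, by 0.46 ± 0.17. Ribosome biogenesis genes had 0.17 over 65 genes, with 49 positive, and 2 higher and 1 lower, near the shares of all genes; Rrp1 and Pes1, both needed for large subunit assembly, differed by 0.52 ± 0.18 and 0.49 ± 0.20. Genes of mTOR and TOP mRNA control had 0.14 over 24 genes, with 18 positive and none at an unadjusted p under 0.05 in limma. The kinase gene Pdpk1 stood at 0.41 ± 0.19 and the mTOR partner Mlst8 at 0.37 ± 0.19. Ribosome-associated and fusion proteins had 0.29 over 14 genes, with 13 positive and 0 at that p; Fau, which fuses a ubiquitin-like part to a small subunit protein, was at 0.36 ± 0.16, and the assembly factor Zfp622 at 0.38 ± 0.17. None of these genes passed the test in limma, each with an adjusted p of 0.724. Within the third slide the medians were 0.10 for elongation, 0.00 for initiation, 0.06 for biogenesis, 0.00 for mTOR and TOP mRNA control and 0.15 for associated proteins. Without 1 array they ran from 0.14 to 0.34, 0.14 to 0.32, 0.10 to 0.27, 0.05 to 0.19 and 0.22 to 0.33 in the same order.

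Marker genes of cell types had median differences from -0.10 (oligodendrocyte precursors) to 0.40 (choroid plexus) on the same arrays. Excitatory neuron markers, the cells targeted, had a median of 0.17 over 9 genes, with a summed scaled signal, on the linear scale, of 114 to 137 in WT and 121 to 156 in CKO. Astrocyte markers had 0.32 over 7 genes (24.4 to 26.3 and 26.1 to 37.2), interneuron markers 0.25 over 8 (70.4 to 88.2 in WT; in CKO the lowest array was also at 70.4, and the highest, CKO 2, was 1.22 times the highest WT array), and oligodendrocyte markers 0.18 over 8 (38.6 to 52 and 41.7 to 45.9). Microglia markers had 0.12 over 9, summing to 64.6 to 87 in WT and 75.1 to 104 in CKO. Oligodendrocyte precursor markers had -0.10 over 5 (2.24 to 2.85 and 2.5 to 3.18), and endothelium markers -0.01 over 6 (1.22 to 1.58 and 1.36 to 1.6). Choroid plexus markers had 0.40 over 4, with sums of 3.57 to 7.02 in WT and 7.09 to 13.5 in CKO. Among the marker lists, this was the only list whose sums did not overlap. Of its 4 genes, 2 were higher at an unadjusted limma p under 0.05, against 2.5% of all genes. They were Ttr, the transthyretin gene, by 1.16 ± 0.36 and Kl by 0.43 ± 0.17, and neither passed adjustment over all genes. Oligodendrocyte markers also had 2 higher at that p, and interneuron, astrocyte and endothelium markers 1 each. Endothelium markers had 1 lower, against 2.8% of all genes. Several sums rested mostly on 1 probe, with Ttr at 53% to 85.2% of the choroid plexus sum, Itgam at 70% to 81% of the microglia sum and Lhx6 at 67.8% to 78.8% of the interneuron sum. All tested markers but P2ry12 and Cdh5 were well above background on all 8 arrays, so their probes gave signal in both groups. Between 72.2% and 81.5% of all probes were well above background on each array, and no input fraction was used here. Whether the marker probes of other cell types read RNA of those cells was not tested. The part of other cell types in the level of the ribosomal protein genes was not tested either.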

How the data were processed

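RNA from anti-HA precipitates of hippocampus was amplified (WTA2), labelled with Cy5 and hybridised to 8 single-colour Agilent arrays, 4 WT and 4 CKO. Per the file headers, the authors deposited scanner intensity values from Agilent Feature Extraction (version 11.5 in the submitters' processing notes), background-corrected as the processed red signal intensity. Values the authors deposited as a processed intensity table were an alternative, and their normalization is not given in the sources used here.

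Control spots and flagged outliers were left out and spots of a probe averaged. From the log2 of each signal its array's 75th percentile was subtracted. Probes had to be well above background on 4 or more of the 8 arrays. A gene was its probe with the highest mean. The genotype test was limma's moderated fit (lmFit, eBayes; limma 3.58.1, R 4.3.3) of all 29529 genes, adjusted by Benjamini-Hochberg and called under 0.05. Ctcf was also tested by exact permutation. The procedure was tested on simulated data. Precision is limited by the number of arrays. Of the 185 member probes, 168 had an accession that RefSeq gives to the same symbol.

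The members, role groups, pathway lists and marker lists were chosen with earlier results of these data known. Described are Ctcf, the 4 members with the smallest p per subunit and direction, role groups, paralogs, genes among the 5 with the widest gap between probes, members not above background, and the 2 genes with the smallest p of each pathway list. The WT and CKO arrays share replicate numbers, but these did not pair the mice. Alternatives changed scaling, background, filter, probe choice, slide, sex, replicate number and left out each array. Some member genes count in totals and medians but are not reported here by name.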

Additional observations from a re-analysis of the deposited data

Results flagged for a closer look

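Over the named members, Ctcf and medians over the class, 94 groups of 4 arrays were checked for an array far from the other 3 by Dixon's 95% critical value for the gap over the range, and chance picks out about 1 in 20 groups. There were 5 such values. CKO 4 was low for Rps9 (3.58, others 3.79 to 3.82) and Rpsa (4.48, others 4.77 to 4.82). CKO 3 was high for Rps6 (4.37, others 3.90 to 3.95). WT 4 was high for Rplp0 (2.94, others 2.47 to 2.54). WT 3 was low for Rps28 (2.27, others 2.57 to 2.62). Of the 5 values, 4 came from the third slide.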

How the results depend on the processing

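No member passed an adjusted p of 0.05 in limma under any setting; the smallest adjusted p over all of them was 0.363. The count of all genes passing, 1, became 0 with quantile normalization alone or with slide as a fixed block, the authors' deposited values, each probe tested, within slide 2 or the replicate block; 2 without a filter on dim probes; 3 with sex as a covariate; 4 with normexp and quantile normalization; 5 with probes well above background on all arrays; 13 with slide as a random block; and 0 to 2 when 1 array was left out. The median of large subunit genes (0.25) was 0.39 with median scaling, 0.13 with quantile normalization or normexp and quantile normalization, 0.08 with the authors' values, 0.11 with quantile normalization and slide together (added after seeing the data), and 0.19 to 0.31 without 1 array. For the small subunit (0.27) it was 0.41, 0.14, 0.15, 0.10, 0.14 within slide 3, and 0.20 to 0.32. Ribosome-associated genes (0.29) gave 0.43 with median scaling, 0.18 with quantile normalization, 0.13 with the authors' values, 0.15 within slide 3, 0.18 with quantile and slide, and 0.22 to 0.33 without 1 array; initiation factors (0.22) gave 0 within slide 3. Members higher at an unadjusted limma p under 0.05 numbered 10, against 2.5% of all genes. With quantile normalization, the authors' values and the replicate block the count was 2, against 2.57%, 3.53% and 1.29% of all genes. It was 4 with normexp (3.09%) and with the mean of probes (2.19%), and 6 with slide as a fixed block (2.39%). Of the probes, 16 were higher, against 2.12% of all probes. Within slide 2 the count was 0 (1.22%), and with quantile and slide it was 1 (3.18%). Among genes whose probes share 1 chromosome it was 1 (2.47%). Without 1 array it was 1 to 15 (1.14% to 5.28%). Replicate numbers did not pair the mice (correlations of same-numbered deviations -0.316, 0.388, -0.422 and 0.068). Positive differences (75 members) were 162 of the probes and 23 of the genes on 1 chromosome, and 71 to 75 without 1 array. Negative probes (20) were 12 with median scaling, 32 with normexp and quantile, 42 with the authors' values, 36 with quantile and slide, and 15 to 30 without 1 array. Members with all CKO arrays above all WT arrays numbered 15, against 1.96% of all genes. The number was 7 with quantile normalization (1.79%) and 3 with the authors' values (2.55%). It was 3 with median scaling and 6 with normexp, against 399 and 507 of the 29529 genes. Without 1 array it was 15 to 36 (2.23% to 8.7%), with 31 without WT 4 and 36 without CKO 4. Direction turned, of the 43 genes named, in 49 of 946 comparisons. Rpl7l1 gave 0.01 with the authors' values and 0.07 within slide 3. Rpl10l gave 0.07 with quantile normalization, 0.08 with the authors' values, 0.37 as the mean of probes, 0.12 within slide 2 and 0.13 with quantile and slide. Rpl5 gave 0.12 with median scaling and -0.15 to 0.08 without 1 array. Within slide 3, Rplp0 gave -0.04 and Rpl35 -0.02. Rpl26 gave -0.08 with quantile normalization and normexp, -0.12 with the authors' values, -0.03 as the mean of probes or with slide as a fixed block, 0.00 with a random block, -0.11 within slide 3, -0.10 with quantile and slide, and -0.07 and -0.02 without WT 2 and CKO 3. Rps3 gave -0.06 with quantile normalization and normexp, -0.14 with the authors' values, -0.01 with quantile and slide, and -0.02 and -0.03 without WT 4 and CKO 2. Rps19 gave -0.04 and -0.03 with slide as a fixed and random block, -0.05 and -0.03 within slides 2 and 3, -0.02 with quantile and slide, and -0.12 to 0.14 without 1 array. Rps7 gave -0.04 and Rpl35a -0.04 with the authors' values, and Rpl35a 0.00 as the mean of probes. Rps27l gave -0.03 with quantile normalization, -0.02 with normexp, -0.05 with the authors' values, -0.13 within slide 3, -0.03 with quantile and slide, and -0.02 and 0.00 without WT 3 and CKO 3. The cause was not tested. A signal near background limits the dim paralogs.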
